A study of Mus musculus with 8 samples.

Results

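The endocannabinoid system was described through 9 genes, taken by name, among the 20692 genes measured in sorted cells of the mouse central amygdala. They are the receptors Cnr1 and Cnr2, the diacylglycerol lipases Dagla and Daglb, the 2-arachidonoylglycerol (2-AG) hydrolases Mgll, Abhd6 and Abhd12, and the anandamide enzymes Napepld and Faah. The study compared neurons, with no challenge given, of 2 populations of the central amygdala, each with 4 libraries, and each library held about 1000 cells of a different male mouse. PKCd libraries came from offspring of PKC delta-type::Cre mice crossed to Rosa::loxP-STOP-loxP-td-Tomato mice, aged 9 weeks (replicates 1 and 2) or 18 weeks (replicates 3 and 4). SST libraries came from offspring of SST::Cre mice crossed to the same reporter line, aged 8 weeks (replicates 1 and 2) or 20 weeks (replicates 3 and 4). All mice carried the Cre-dependent red fluorescent reporter, so the sort aimed at cells in which Cre under the Prkcd or the Sst promoter had acted at some time. Markers of other cell types were also found in every library, as given below. Mice of 8 or 9 weeks are called younger here and mice of 18 or 20 weeks older. The central amygdala of both sides was punched from brain slices, dissociated with papain, and sorted for red cells by flow cytometry.

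Endocannabinoids are lipid messengers that neurons make on demand and release towards the terminals that contact them. The best known are 2-AG and anandamide. The receptor CB1, encoded by Cnr1, sits mostly on axon terminals and lowers transmitter release through Gi/o proteins, while CB2, encoded by Cnr2, is best known from immune cells. In the amygdala this signalling is known for its part in fear extinction and stress responses. Diacylglycerol lipases make 2-AG, with the alpha form best known from neurons and the beta form from microglia and macrophages.

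Libraries held 10316149 to 18242496 estimated counts in the younger mice and 964361 to 2522749 in the older ones, so age class and depth cannot be told apart. In TPM, an estimate of transcript abundance scaled to length and library size, Prkcd stood at 106.5 to 225.7 TPM in PKCd libraries, against 0 to 30.2 TPM in SST libraries. Sst stood at 0.209 to 222.7 TPM in PKCd libraries, the top value being that of PKCd replicate 2, and at 116.3 to 296.2 TPM in SST libraries. 8 neuronal markers summed to 260.1 to 1997 TPM in PKCd libraries, against 245.6 to 880.5 TPM in SST libraries. Tubb3 was at 0 in 1 library of each population and the other 7 neuronal markers in none, while Slc32a1, the vesicular GABA transporter, was at 0 in 2 libraries of each. In every library, 8 oligodendrocyte markers together exceeded the neuronal ones, and so did 12 microglial markers. The sums of 8 astrocyte and 6 mural cell markers did so in every SST library, though not in every PKCd library. The oligodendrocyte markers summed to 11707 to 29628 TPM in PKCd libraries, against 10181 to 59654 TPM in SST libraries. 12 microglial markers summed to 29999 to 48973 TPM in PKCd libraries, against 463.4 to 5916 TPM in SST libraries. All 12 had their 4 PKCd values above their 4 SST values, as did 3.88% of the 11328 genes tested below. None was at 0 in any library. In the edgeR test described below, 4 of the 12 passed an adjusted p of 0.05 as higher (0.282% of all genes).

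The 9 genes spanned a wide range of levels in TPM, which allows genes to be compared. Abhd12 had the highest mean over the 8 libraries, 192.1 TPM, above the means of 95.2% of all genes. Daglb (66.4 TPM), Mgll (61.4 TPM) and Abhd6 (57.4 TPM) followed, and their ranges over the libraries overlapped each other and that of Abhd12. In PKCd replicate 3 and SST replicates 3 and 4, Abhd12 was not the highest of the 9 genes. Napepld (5.36 TPM), Faah (3.73 TPM) and Cnr1 (1.85 TPM) were lower and also overlapped. Cnr2 (0.537 TPM) and Dagla (0.446 TPM) were lowest, with means above those of 34.1% and 33.1% of all genes. 5 of the 9 genes were listed at 0 in at least 1 library, and Cnr2 and Dagla had too few reads to pass the expression filter.

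**Figure D1:**
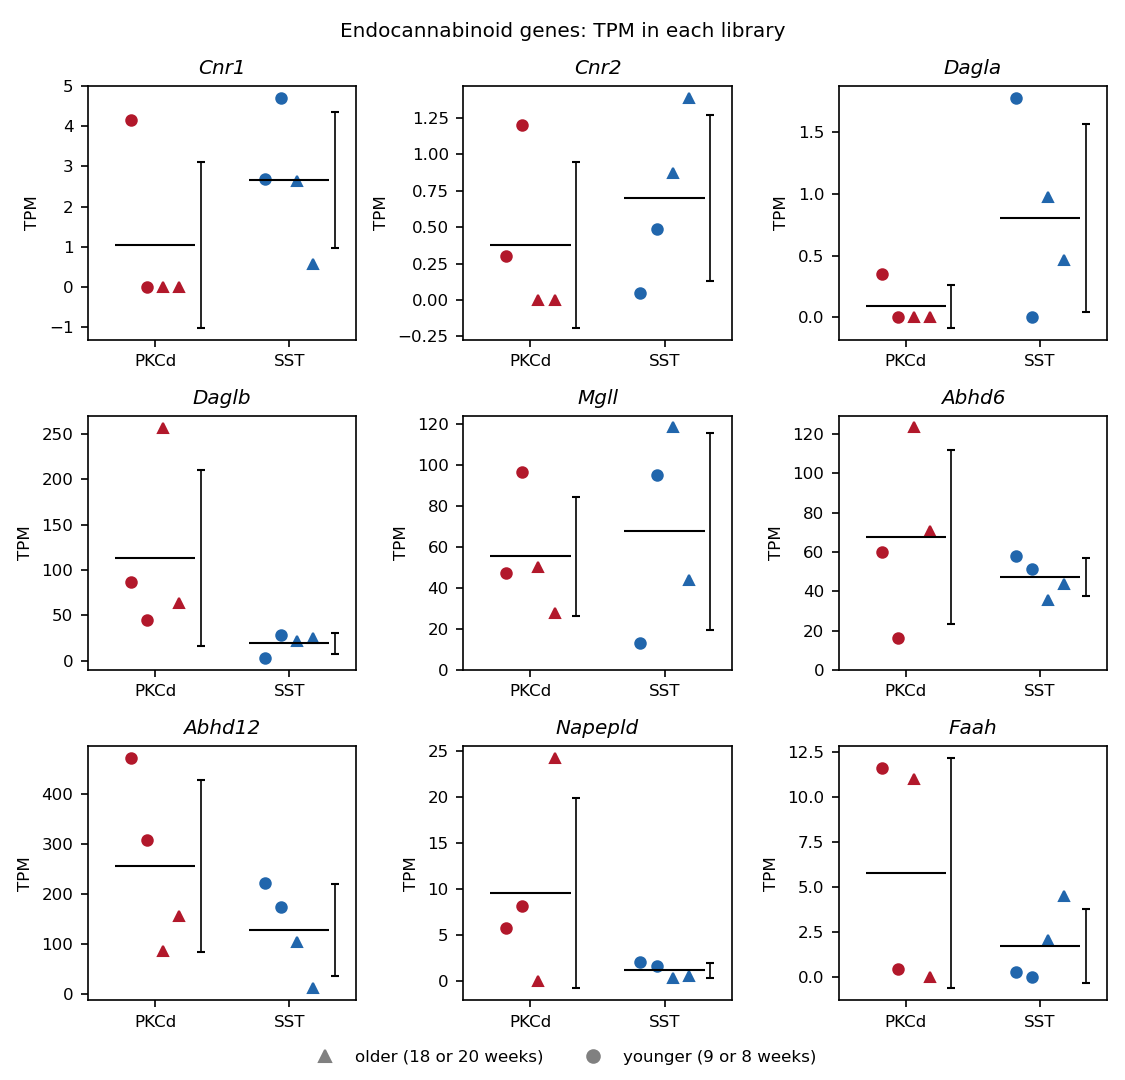
TPM of the 9 endocannabinoid genes in each library, with PKCd libraries left of SST libraries, triangles for older and circles for younger mice, lines for the mean and bars for the SD of 4 libraries. Daglb is the gene whose 4 PKCd values, 45.0 to 256.8 TPM, lie above all 4 SST values, 2.81 to 28.4 TPM.

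Of the 7 genes tested between the populations, 0 passed an adjusted p of 0.05 in edgeR, whose quasi-likelihood test called 0.282% of the 11328 genes higher in PKCd libraries and 0% lower. At an unadjusted p under 0.05 there was 1 of the 7, Daglb, against 6.67% of all genes. DESeq2 called 1 of the 7, again Daglb, as higher, against 3.2% of all genes called higher, and 0 as lower, against 0.812%. The PKCd values of 1 gene lay above all its SST values, as did 3.88% of all tested genes, and those of 0 genes lay below (3.05% of all genes). The log2 fold change, PKCd minus SST, was positive for 5 and negative for 2 of the 7, with a median of 1.04 beside -0.08 over all genes tested. In these bulk libraries, fewer cells of a type and less RNA per cell cannot be told apart.

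The receptors were described first. Cnr1 (chromosome 4, 33923171 to 33948831, GRCm38) had 4.15 TPM in PKCd replicate 1 and 0 TPM in PKCd replicates 2, 3 and 4, against 2.69, 4.72, 2.64 and 0.559 TPM in SST replicates 1 to 4. Cnr1 reads were thus found in all 4 SST libraries and in 1 of the 4 PKCd libraries, whose single positive value lay within the SST range. In PKCd replicate 2 a count of 0 allows up to 0.0720 TPM, counting 3 reads as the limit, which is under every SST value. In PKCd replicates 3 and 4 the same limit was 0.925 and 0.586 TPM, above the 0.559 TPM of SST replicate 4, so a difference from that library was not detectable at this depth. Such limits account for counting error alone, because reads copied by PCR do not stand for separate molecules. The read counts behind these values were 279 in PKCd replicate 1 and 170, 243, 14 and 5 in SST replicates 1 to 4. Its log2 fold change in edgeR was -2.73 ± 2.28 (SE; adjusted p 0.904, range over 18 alternatives 0.398 to 0.9997). Without PKCd replicate 1, which holds all PKCd reads of the gene, it was -9.21, a fitted value that depends on the prior count. Within the younger mice alone it was -0.80, and in the older mice the gene did not pass the filter.

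Cnr2 (chromosome 4, 135895189 to 135920219) was scarce in both populations. It had 0.299, 1.20, 0 and 0 TPM in PKCd replicates 1 to 4, against 0.0487, 0.485, 0.875 and 1.39 TPM in SST replicates 1 to 4. Its estimated counts summed to 45.8 over the PKCd libraries and 29.4 over the SST libraries. The groups overlapped, with the highest values in SST replicate 4 (8.12 counts) and PKCd replicate 2 (32.7 counts). In PKCd replicates 3 and 4 a count of 0 allows up to 1.42 and 0.898 TPM of Cnr2, so the order of these libraries among the 8 was not detectable at this depth. Without a filter, edgeR gave a log2 fold change of -1.12 ± 4.26 (SE; adjusted p 0.994), and in the younger mice alone it was 1.73 ± 2.26 (SE; adjusted p 0.9997).

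The diacylglycerol lipases cut diacylglycerol to 2-AG, and the 2 forms lay far apart. Dagla (chromosome 19, 10245265 to 10304877) had 0.353, 0, 0 and 0 TPM in PKCd replicates 1 to 4, against 1.78, 0, 0.973 and 0.461 TPM in SST replicates 1 to 4. Reads of Dagla were found in 1 PKCd library (23 reads) and in 3 SST libraries (109, 5 and 4 reads), and the groups overlapped. A count of 0 allows up to 0.0743, 0.955 and 0.605 TPM in PKCd replicates 2, 3 and 4, so in replicates 3 and 4 a level like that of SST replicate 4 was not detectable at this depth. Without a filter, edgeR gave a log2 fold change of -3.74 ± 3.23 (SE; adjusted p 0.952). Daglb (chromosome 5, 143464484 to 143504442) had 86.6, 45.0, 256.8 and 64.2 TPM in PKCd replicates 1 to 4, against 2.81, 28.4, 21.5 and 25.3 TPM in SST replicates 1 to 4. All 4 PKCd libraries lay above all 4 SST libraries, with PKCd replicate 3 the highest and SST replicate 1 the lowest. The means were 113.2 ± 97.3 TPM across the PKCd mice, against 19.5 ± 11.5 TPM across the SST mice (SD, n = 4 each). The ratio of these means was 5.80.

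The log2 fold change of Daglb was 2.56 ± 0.72 (SE), and it did not pass over all genes in edgeR (adjusted p 0.292). It passed in DESeq2 (2.54, adjusted p 0.0213) and in edgeR without a filter (2.57, adjusted p 0.0348, where 1.29% of 16834 genes were called higher). It did not pass in the other 18 alternatives, and the value stayed positive in all 20, at 1.98 to 3.39. Within the older mice it was 2.83 ± 0.82 and within the younger mice 2.31 ± 1.24 (SE), and the edgeR interaction of population and age class was 0.54 ± 1.43 (SE; adjusted p 0.9997). Without PKCd replicate 2, the PKCd library with an Sst level in the SST range, it was 2.78 (adjusted p 0.344). Some Daglb reads were divided with other targets by the authors' tool, as its estimated counts are not whole in PKCd replicates 2, 3 and 4 and in SST replicates 1 and 2.

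Microglial markers moved with Daglb between the populations. The part of microglia or border macrophages in the difference was not tested. The 5 border macrophage markers summed to 15.9 to 411.5 TPM in PKCd libraries, against 0.111 to 3.61 TPM in SST libraries. Of these 5, 1 had all PKCd values above all SST values, as did 3.88% of all tested genes. It was Pf4, which had 12.4 to 382.2 TPM in PKCd libraries and was at 0 in all 4 SST libraries. The top sum and the top Pf4 value were both those of PKCd replicate 2. Mrc1, Cd163, Lyve1 and F13a1 overlapped. Lyve1 was at 0 in all 4 PKCd libraries, and Cd163 was highest in SST replicate 3 (3.61 TPM). Per 1000 TPM of the 12 microglial markers, Daglb had 2.30, 1.496, 5.24 and 2.14 TPM in PKCd replicates 1 to 4, against 0.474, 14.8, 15.8 and 54.7 TPM in SST replicates 1 to 4. Within the SST libraries the order of Daglb did not follow that of the markers: SST replicate 1 had the most microglial marker RNA, 5916 TPM, and the least Daglb. Among the PKCd libraries, replicate 3 had the most of both. The genes with levels most like those of Daglb over the 8 libraries were Tpm3, a tropomyosin (r = 0.982), Dgkz, a kinase that removes diacylglycerol by phosphorylation (r = 0.981), and Lcp2, an adaptor of blood cell signalling (r = 0.979). These are Pearson correlations of log2(TPM + 1) among 7981 genes, given as a description. The 8 libraries fall into 2 populations and differ in depth and microglial content.

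**Figure D2:**
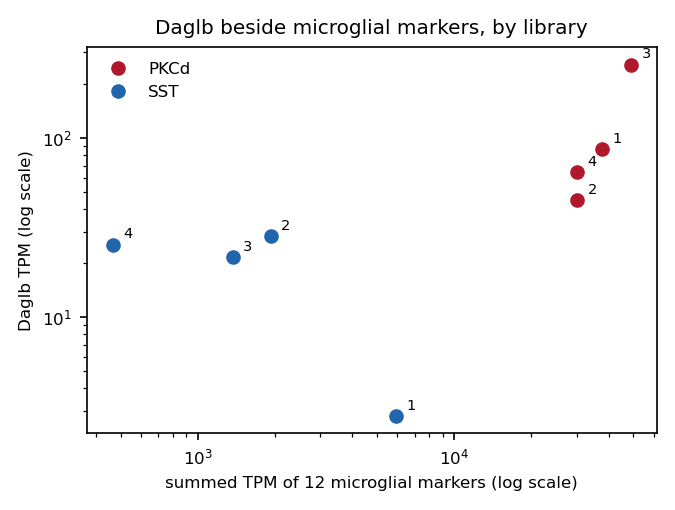
Daglb TPM against the summed TPM of 12 microglial markers, both on log scales, with 1 point per library and replicate numbers beside the points. The PKCd points lie at 29999 to 48973 TPM of markers and the SST points at 463.4 to 5916 TPM, where SST replicate 1 has the lowest Daglb value, 2.81 TPM.

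The window around a RefSeq start site of Daglb is shown because Daglb was the gene whose populations did not overlap. It covers chr5:143464243-143464542 on the plus strand (RefSeq, GRCm38.p6), around a start site at base 143464493. The Daglb transcript measured here starts at base 143464584 in GENCODE, past the end of this window, so positions below refer to the RefSeq site. Capitals mark a match to the core motif of PU.1, a transcription factor of the myeloid lineage.
Daglb: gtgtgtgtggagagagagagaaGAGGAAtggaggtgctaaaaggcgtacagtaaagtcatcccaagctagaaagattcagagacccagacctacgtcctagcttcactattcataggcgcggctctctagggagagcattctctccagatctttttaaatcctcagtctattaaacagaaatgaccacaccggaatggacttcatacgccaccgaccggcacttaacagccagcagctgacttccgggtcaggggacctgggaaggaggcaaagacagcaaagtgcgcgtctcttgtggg

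The motif searched, GAGGAA on either strand, was found 1 time, at position -228 from the start site, and 28.3% of the 32851 promoter windows of the same length hold it. The window held no match to the GC box (GGGCGG, 35.7% of windows), the TATA box (TATAAA, 13.6%) or the cyclic AMP response core (TGACG, 20.8%). A match describes letters in a window and no more.

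As a share of the TPM of both lipases, Dagla made up 0.406% in PKCd replicate 1 and 0% in the other 3 PKCd libraries. In SST libraries it made up 38.8, 0, 4.32 and 1.79% in replicates 1 to 4. As a share of read counts, the 95% exact binomial interval was 0.459 to 1.08% in PKCd replicate 1 and reached 0.361, 0.813 and 2.05% from 0% in PKCd replicates 2 to 4. The same interval was 46.1 to 60.2% in SST replicate 1, 0 to 0.464% in SST replicate 2, 2.47 to 16.6% in SST replicate 3 and 0.865 to 7.87% in SST replicate 4. These intervals cover counting error alone, those of PKCd replicates 1 and 4 overlapped that of SST replicate 4, and those of all 4 PKCd libraries overlapped that of SST replicate 2. The populations overlapped at 0%, and the top value was that of SST replicate 1, where Daglb was lowest. The mean difference, PKCd minus SST, was -11.1 percentage points and -1.93 without SST replicate 1.

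The hydrolases that end 2-AG signalling are encoded by Mgll, Abhd6 and Abhd12, all detected in every library. Mgll (chromosome 6, 88724412 to 88828360) encodes monoacylglycerol lipase, which is known to clear most 2-AG in the brain. It had 47.0, 96.4, 50.2 and 27.7 TPM in PKCd replicates 1 to 4, against 12.9, 94.9, 118.4 and 43.9 TPM in SST replicates 1 to 4. The groups overlapped, and SST replicate 1 was the lowest and SST replicate 3 the highest of the 8 libraries. edgeR put the log2 fold change at -0.11 ± 0.68 (SE; adjusted p 0.989, range over alternatives 0.749 to 0.9997), and its sign changed in 6 of 20 alternatives. Within the older mice it was -0.85 ± 0.76 and within the younger mice 0.57 ± 1.02 (SE).

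Mgll was the gene among the 9 with more than 1 transcript in the files, and the windows around its start sites are shown because the libraries divided its reads between them differently. NM_011844 starts at base 88724412 and NM_001166251 starts 292 bases downstream, on the plus strand of chromosome 6. They share 7 of 8 exons, so their division rests on reads of the first exon. The windows are chr6:88724162-88724461 and chr6:88724454-88724753 (RefSeq, GRCm38.p6), and capitals mark the GC box or its complement.
Mgll, start of NM_011844: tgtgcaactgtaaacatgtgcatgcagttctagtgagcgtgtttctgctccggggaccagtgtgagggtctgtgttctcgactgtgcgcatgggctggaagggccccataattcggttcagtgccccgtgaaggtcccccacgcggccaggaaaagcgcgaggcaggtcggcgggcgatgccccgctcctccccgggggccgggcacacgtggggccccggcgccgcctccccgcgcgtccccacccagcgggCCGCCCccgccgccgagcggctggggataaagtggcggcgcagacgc
Mgll, start of NM_001166251: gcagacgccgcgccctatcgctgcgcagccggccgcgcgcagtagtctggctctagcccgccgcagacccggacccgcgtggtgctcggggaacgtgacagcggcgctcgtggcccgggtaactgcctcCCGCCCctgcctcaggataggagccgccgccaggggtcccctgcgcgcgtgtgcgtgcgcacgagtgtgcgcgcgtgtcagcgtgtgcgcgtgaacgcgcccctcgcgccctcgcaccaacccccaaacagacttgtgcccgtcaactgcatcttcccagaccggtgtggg

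Each window holds 1 GC box, read as CCGCCC, at position 3 from the earlier start site and -121 from the later one. Neither holds GAGGAA or TATAAA, and the second holds TGACG 19 bases after its start site. The later start adds 48 coding bases, or 16 codons, before the start codon that both transcripts share, which is in capitals (GENCODE transcript sequence).
Mgll, first codons of NM_001166251: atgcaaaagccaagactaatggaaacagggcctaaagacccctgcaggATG

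The longer coding form, NM_001166251, made up 45.3, 40.4, 100 and 0% of Mgll TPM in PKCd replicates 1 to 4, against 63.3, 84.7, 36.1 and 1.91% in SST replicates 1 to 4. The form NM_011844 made up 54.7, 59.6, 0 and 100% in PKCd replicates 1 to 4, against 36.7, 15.3, 63.9 and 75.9% in SST replicates 1 to 4. In SST replicate 4 the forms NM_001166250 and NM_001166249 took the other 19.3 and 2.92%. The all-or-none splits were those of PKCd replicates 3 and 4, the libraries with the fewest Mgll reads (110 and 88), while PKCd replicates 1 and 2, with 2039 and 2581 reads, held both forms. SST replicates 1 and 2, with 535 and 3259 reads, held both forms as well. The shares are estimates of the authors' tool and carry no interval, and the populations overlapped.

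**Figure D3:**
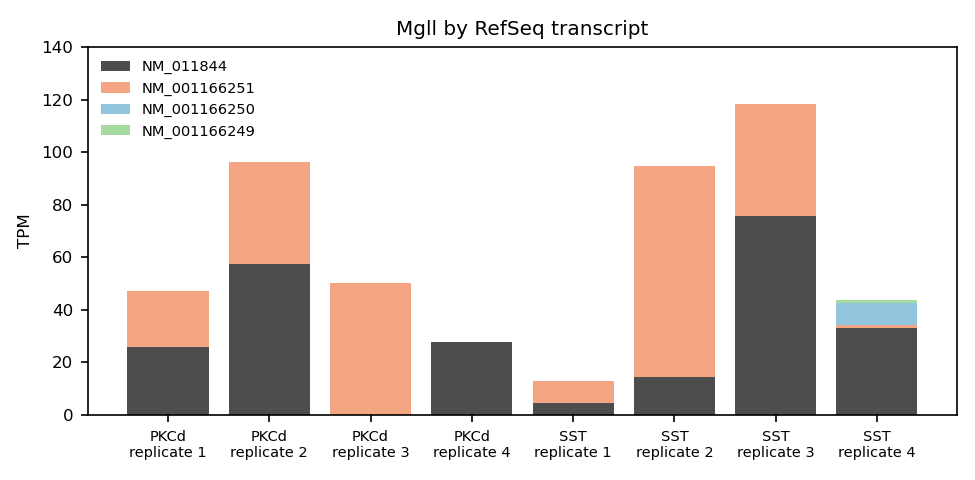
TPM of Mgll in each library, stacked by RefSeq transcript, with PKCd libraries left of SST libraries. PKCd replicates 3 and 4 show 1 form each, at 50.2 and 27.7 TPM, and the other libraries show at least 2.

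Abhd6 (chromosome 14, 8002888 to 8056773), a membrane hydrolase that acts on 2-AG where neurons make it, had 59.8, 16.1, 123.6 and 70.5 TPM in PKCd replicates 1 to 4. SST replicates 1 to 4 had 58.1, 51.5, 35.5 and 43.8 TPM. The SST libraries lay within the PKCd range, which ran from PKCd replicate 2 to PKCd replicate 3. In edgeR the log2 fold change came to 0.35 ± 0.77 (SE; adjusted p 0.972, range over alternatives 0.797 to 0.9999), with a negative value in 4 of 20 alternatives. It was 1.33 ± 0.76 within the older mice and -0.60 ± 1.22 within the younger mice (SE), and the interaction was 1.98 ± 1.46 (SE; adjusted p 0.9997 in edgeR).

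Abhd12 (chromosome 2, 150832493 to 150904779), a hydrolase best known for lysophosphatidylserine and also able to cut 2-AG, had 472.8, 308.9, 86.1 and 156.3 TPM in PKCd replicates 1 to 4. SST replicates 1 to 4 had 222.5, 174.3, 104.7 and 11.3 TPM. The populations overlapped, and the order within each followed the age class of the mice. The edgeR log2 fold change between populations was 1.04 ± 0.61 (SE; adjusted p 0.845, range 0.364 to 0.9997), and it was 1.18 ± 1.05 within the older and 0.88 ± 0.82 within the younger mice (SE). It was positive in all 20 alternatives, at 0.67 without SST replicate 4 to 1.72 without SST replicate 3.

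The 3 hydrolases were also set against each other as shares of their summed TPM, which was 254.5 to 579.6 TPM in PKCd libraries, against 99.0 to 320.8 TPM in SST libraries. Mgll made up 8.11, 22.9, 19.3 and 10.9% in PKCd replicates 1 to 4, against 4.41, 29.6, 45.8 and 44.3% in SST replicates 1 to 4. Abhd12 made up 81.6, 73.3, 33.1 and 61.4% in PKCd replicates 1 to 4, against 75.8, 54.4, 40.5 and 11.5% in SST replicates 1 to 4. Abhd6 made up 10.3, 3.83, 47.6 and 27.7% in PKCd replicates 1 to 4, against 19.8, 16.1, 13.7 and 44.2% in SST replicates 1 to 4. Each share overlapped between the populations. In SST replicates 2 to 4 the Mgll share was above that of all 4 PKCd libraries, and in SST replicate 1 it was below them.

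**Figure D4:**
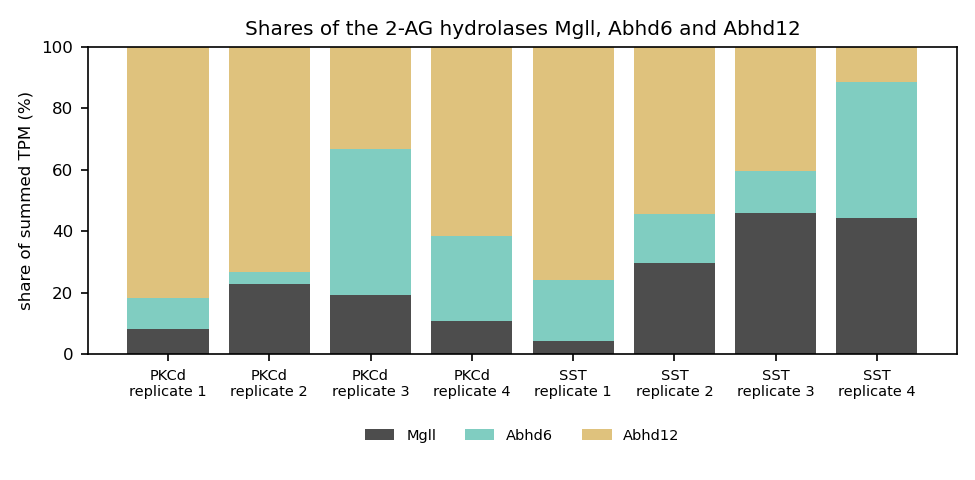
Shares of Mgll, Abhd6 and Abhd12 in their summed TPM, in percent, for each library, with PKCd libraries left of SST libraries. Abhd12 has the largest share in 3 PKCd libraries and in SST replicates 1 and 2, and the Mgll share is 4.41% to 45.8% in SST libraries.

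Anandamide is made from N-acylphosphatidylethanolamine by the phospholipase encoded by Napepld and cut by the amidase encoded by Faah. Napepld (chromosome 5, 21662901 to 21701622) had 5.81, 8.17, 0 and 24.3 TPM in PKCd replicates 1 to 4, against 2.10, 1.60, 0.363 and 0.541 TPM in SST replicates 1 to 4. 3 PKCd libraries lay above every SST library, and PKCd replicate 3, where a count of 0 allows up to 1.49 TPM, did not. Its log2 fold change in edgeR was 3.25 ± 1.91 (SE; adjusted p 0.845, range 0.263 to 0.9997). It was 0.71 without PKCd replicate 4, the highest library, and 1.82 ± 2.39 within the younger mice (SE), and the gene did not pass the filter in the older mice alone.

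Faah (chromosome 4, 115996668 to 116018837) had 11.6, 0.409, 11.001 and 0 TPM in PKCd replicates 1 to 4, against 0.270, 0, 2.05 and 4.51 TPM in SST replicates 1 to 4. PKCd replicates 1 and 3 lay above all other libraries, and both populations held a library at 0. edgeR put the log2 fold change at 2.90 ± 2.49 (SE; adjusted p 0.907, range 0.547 to 0.9997). It was 1.00 without PKCd replicate 1, 4.05 without PKCd replicate 4 and 1.92 without SST replicate 2. Within the older mice it was 0.76 ± 2.27 and within the younger mice 5.11 ± 3.52 (SE).

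Between age classes, 0 of the 7 tested genes passed over all genes in edgeR, which called 0.053% of genes, or in DESeq2, which called 4.9%. At an unadjusted p under 0.05 there was 1 of the 7 in edgeR, Abhd12, against 8.35% of all genes. Abhd12 had 86.1, 156.3, 104.7 and 11.3 TPM in the older mice (PKCd replicates 3 and 4, then SST replicates 3 and 4), against 472.8, 308.9, 222.5 and 174.3 TPM in the younger mice (replicates 1 and 2 in the same order). All 4 older libraries lay below all 4 younger libraries, as 3.53% of all tested genes did. The edgeR log2 fold change, older minus younger, was -2.05 ± 0.63 (SE; adjusted p 0.370, range over alternatives 0.0610 to 0.681). The same fold change was -3.41 ± 2.30 for Cnr1, 0.85 ± 0.68 for Daglb, -0.35 ± 0.68 for Mgll, 0.20 ± 0.77 for Abhd6, -0.87 ± 1.84 for Napepld and 1.85 ± 2.46 for Faah (SE). The median over the 7 was -0.35 beside -0.16 over all genes. Age class cannot be told apart from depth, which was lower in every older library.

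The interaction of population and age class passed for 0 of the 7 genes in edgeR, which called 0% of all genes (4.12% at an unadjusted p under 0.05, 0 of the 7), and for 0 in DESeq2, which called 0.68%. The widest estimates were those of Cnr1, -7.45 ± 5.71, and Faah, -4.26 ± 4.01 (SE), both genes with libraries at 0. The intervals of these estimates are too wide to show that the populations differed alike in both age classes.

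**Figure D5:**
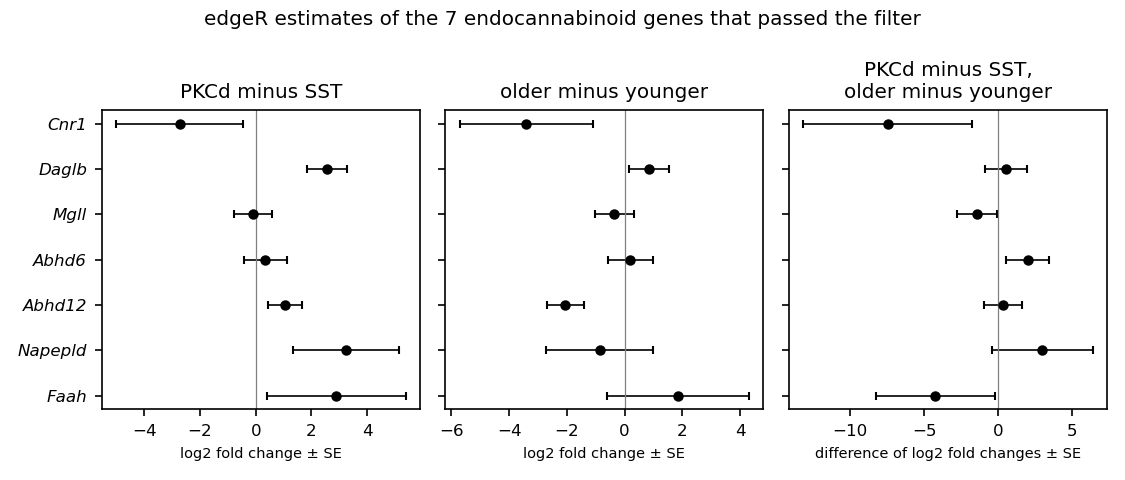
edgeR log2 fold changes with SE for the 7 tested genes, PKCd minus SST on the left, older minus younger in the middle, and the difference between the age classes on the right. Daglb stands at 2.56 ± 0.72 on the left and Abhd12 at -2.05 ± 0.63 in the middle.

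Other genes around this pathway were taken as 6 lists of 61 genes in all, of which 42 had enough reads to be tested. Of the 42, 0 passed over all genes in edgeR, which called 0.282% of all genes, and 11 had an unadjusted p under 0.05, as did 6.67% of all genes. DESeq2 called 5 of the 42 higher in PKCd libraries (Ptgs1, Alox5, Inpp5d, Arrb2 and Plcg2), against 3.2% of all genes, and 0 lower, against 0.812%. The PKCd values of 6 of the 42 lay above all SST values (3.88% of all genes), and those of 1, Scp2, lay below (3.05%). Ptgs1, cyclooxygenase 1, had 258.8, 282.2, 557.2 and 330.1 TPM in PKCd replicates 1 to 4, against 18.7, 1.51, 2.38 and 1.41 TPM in SST replicates 1 to 4. The populations did not overlap, and the log2 fold change was 6.07 ± 1.11 (SE; edgeR adjusted p 0.0546), with an adjusted p under 0.05 in 7 of 20 alternatives. Alox5, arachidonate 5-lipoxygenase, had 6.66 to 48.0 TPM in PKCd libraries, against 0 to 0.710 TPM in SST libraries (6.83 ± 2.11, SE; edgeR adjusted p 0.376). Both genes are known from microglia and other myeloid cells. Microglial markers moved the same way, and the part of microglia and other myeloid cells was not tested. Of the 6 tested genes of this list, 0 passed in edgeR, 3 had an unadjusted p under 0.05 (6.67% of all genes), and the median log2 fold change was 0.72 (-0.08 over all genes). Ddhd1, a phospholipase, averaged 3.66 ± 5.14 TPM in PKCd libraries, against 18.2 ± 8.51 TPM in SST libraries, and Pnpla2, a triglyceride lipase, 51.0 ± 31.5 TPM across the PKCd mice, against 32.8 ± 13.4 TPM across the SST mice (SD, n = 4 each). Both overlapped between the populations.

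Among further anandamide and N-acylethanolamine enzymes, 6 of 10 were tested, 0 passed in edgeR, 2 had an unadjusted p under 0.05 (6.67% of all genes), and the median was -1.12 (-0.08 over all genes). Gde1, a glycerophosphodiesterase of another route to anandamide, averaged 122.2 ± 93.8 TPM across the PKCd mice, against 313.2 ± 191.9 TPM across the SST mice (SD, n = 4 each). Abhd4, a hydrolase of the same route, averaged 171.5 ± 106.8 TPM across the PKCd mice, against 181.2 ± 100.9 TPM across the SST mice (SD, n = 4 each). Naaa, the acid amidase of N-acylethanolamines, averaged 41.2 ± 30.4 TPM across the PKCd mice, against 88.9 ± 45.4 TPM across the SST mice (SD, n = 4 each). Plaat3, listed under its older symbol Pla2g16, averaged 29.4 ± 26.7 TPM across the PKCd mice, against 84.6 ± 31.2 TPM across the SST mice (SD, n = 4 each). All 4 genes overlapped between the populations.

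Among binding and transport partners, 9 of 9 were tested, 0 passed in edgeR, 4 had an unadjusted p under 0.05 (6.67% of all genes), and the median was -0.62 (-0.08 over all genes). Fabp7 and Fabp5, fatty acid binding proteins that carry anandamide in cells, had log2 fold changes of -1.68 ± 0.54 and -1.43 ± 0.58 (SE; edgeR adjusted p 0.422 and 0.633). Fabp7 is also known from astrocytes. Their 8 markers summed to 450.7 to 4067 TPM in PKCd libraries, against 3129 to 7038 TPM in SST libraries. In each population replicate 3 had the highest sum and the least Fabp7, 101.4 TPM (PKCd) and 336.2 TPM (SST). The part of astrocytes was not tested. Rgs4, which shortens Gi/o signals, averaged 439.0 ± 413.0 TPM across the PKCd mice, against 1041 ± 771.2 TPM across the SST mice (SD, n = 4 each; log2 fold change -1.66, edgeR adjusted p 0.447), and it passed in 1 of 20 alternatives. The populations overlapped, and every older library lay above every younger one. The older PKCd libraries had 818.9 and 768.8 TPM and the younger 141.6 and 26.5 TPM. The older SST libraries had 1461 and 1915 TPM and the younger 339.9 and 447.4 TPM. Age class cannot be told apart from depth here either. The 6 mural cell markers summed to 101.6 to 3743 TPM in PKCd libraries, against 2144 to 10301 TPM in SST libraries, none was at 0 in any library, and their part was not tested. Scp2, a lipid carrier, averaged 314.2 ± 114.9 TPM across the PKCd mice, against 457.3 ± 62.3 TPM across the SST mice (SD, n = 4 each; log2 fold change -0.62, edgeR adjusted p 0.883).

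Of the genes that supply or remove diacylglycerol, 12 of 14 were tested, 0 passed in edgeR, 2 had an unadjusted p under 0.05 (6.67% of all genes), and the median was 0.43 (-0.08 over all genes). Gnaq, the G protein subunit that drives phospholipase C, had 17.7, 35.2, 30.9 and 21.2 TPM in PKCd replicates 1 to 4, against 7.70, 15.9, 12.999 and 17.5 TPM in SST replicates 1 to 4. Dgkz averaged 37.3 ± 15.3 TPM across the PKCd mice, against 12.2 ± 5.94 TPM across the SST mice (SD, n = 4 each), and both genes had all PKCd values above all SST values, as did 3.88% of all genes. Plcb3, a phospholipase C, averaged 26.0 ± 15.9 TPM in PKCd libraries, against 10.4 ± 10.98 TPM in SST libraries, and Gna11, a relative of Gnaq, 92.7 ± 93.6 TPM across the PKCd mice, against 66.3 ± 28.6 TPM across the SST mice (SD, n = 4 each). Of the Gi/o effectors, 8 of 12 were tested, 0 passed in edgeR, 0 had an unadjusted p under 0.05, and the median was 0.28. Gnai2, an inhibitory G protein subunit, had the highest mean of them, at 628.3 ± 376.6 TPM across the PKCd mice, against 295.5 ± 273.1 TPM across the SST mice (SD, n = 4 each). The related subunits Gnai3, Gnao1 and Gnb1 had log2 fold changes of -0.02, 0.51 and 0.31. Of other receptors, 1 of 6 was tested, Ppara, a nuclear receptor of lipid amides, at 1.00 ± 0.817 TPM across the PKCd mice, against 0.494 ± 0.639 TPM across the SST mice (SD, n = 4 each). The ion channel gene Trpv1 had reads in SST replicate 4 alone, at 0.740 TPM, as did Pparg, a nuclear receptor, at 23.4 TPM. Gpr55, a receptor of lysophospholipids, had 0.0355 TPM in PKCd replicate 1, 0.80003 TPM in SST replicate 4 and 0 TPM elsewhere.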

How the data were processed

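RNA was measured in 8 libraries of sorted cells. Estimated counts and TPM in the deposited files were made by the authors with kallisto 0.43.0, per the submitters' processing notes and the column names of the file headers. BWA 0.7.12 and the mm10 build are also named there, with no role given. Lengths in the deposited files were used only for count limits.

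Of 30404 targets, 30080 were named from the RefSeq table of GRCm38.p6, 147 from GENCODE and 177 kept their accession, which gave 20692 genes. Estimated counts and TPM were summed per gene, and counts were rounded to whole numbers for tests. No library's values were identical to another's. Every library is from its own mouse, and p-values therefore rest on a spread that holds mice, sorting and amplification together.

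Genes were tested with edgeR 4.0.16 (R 4.3.3; quasi-likelihood F test, TMM). 11328 genes passed its filter on low counts by population, and the model held age class and population, with Benjamini-Hochberg adjustment over all genes tested. The SE was taken from the F statistic. Alternatives were other scaling, other filters (none, or 10 CPM in 4 libraries), DESeq2 1.42.0, limma 3.58.1 (voom, log2(TPM + 1), log2(TPM + 0.1)), a model without age class, a replicate block, the older or younger mice alone, and leaving out single libraries. In simulated counts every gene had the same spread around its mean, with no difference between age classes. There the edgeR test recovered most changed genes only at the largest fold simulated, so in that setting smaller changes can be missed. The spread of the real genes was not matched. Whether counting used strand is not stated in these sources, so reads of predicted genes that overlap Dagla, Mgll, Abhd6, Abhd12 and Napepld may be mixed with theirs. Some reads of Cnr2, Daglb and Napepld were divided with other targets.

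All 9 genes were described whatever their values. Of each pathway list, genes past the threshold and the 4 with the highest mean TPM were named, and genes named beyond these were chosen after their values were seen. The genes most like a described one were the 3 with the highest Pearson r among genes with a mean of at least 10 TPM. The genes, lists and tests were chosen with earlier results of these data known. 7 of the 9 genes matched a RefSeq promoter window.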

Additional observations from a re-analysis of the deposited data

Results flagged for a closer look

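Cnr1 stood at 4.15 TPM in PKCd replicate 1 and at 0 TPM in the other 3 PKCd libraries, so that library lay far from the rest of its group. Dagla stood at 0.353 TPM in PKCd replicate 1 and at 0 TPM in the other 3 PKCd libraries. PKCd replicate 1 was the most deeply sequenced library, with 18242496 estimated counts. A count of 0 allows up to 0.955 and 0.605 TPM of Dagla in PKCd replicates 3 and 4, so replicate 1 is not shown to stand apart from them. Among 18 groups of 4 libraries checked in this way, chance flags about 1 in 20, a rate that does not hold here, since any single positive value beside 3 values at 0 meets the criterion.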

How the results depend on the processing

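Of 275 values of the tested genes under alternatives, 251 kept their sign and side of the threshold, 2 passed it (Daglb between populations, in DESeq2 and with no filter) and 22 changed sign. The sign changed for Mgll between populations with limma-voom (0.51), with the replicate block (0.065) and in the younger mice alone (0.57), and for Abhd6 with limma-voom (-0.38) and in the younger mice alone (-0.60). Leaving out 1 library gave -0.58 to 0.39 for Mgll and -0.015 to 0.87 for Abhd6 between populations, and -0.86 to 0.060 for Mgll and -0.23 to 0.57 for Abhd6 between age classes. For the interaction it gave -8.45 to 1.49 for Cnr1, -1.40 to 1.35 for Daglb, -0.51 to 2.48 for Abhd12 and -7.84 to 3.97 for Napepld. The 1.49 of Cnr1 came without PKCd replicate 1, where every PKCd value left was 0. Its SE was 2398, so that fit gives no direction. The cause of the other sign changes was not tested.

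The count of the 9 genes called between populations, 0 in edgeR, was 1 with no filter and 1 in DESeq2. The count of all genes called, 32, was 269 with no filter, 454 in DESeq2, 147 and 68 in limma on log2(TPM + 1) and log2(TPM + 0.1), and 0 in the older or the younger mice alone, where fewer libraries were tested. It was 10 (without PKCd replicate 3 or SST replicate 3) to 52 (without SST replicate 1) with 1 library left out. Between age classes the count of 6 was 2 with RLE scaling, 555 in DESeq2 and 0 to 2 with 1 library left out. For the interaction it was 0 in edgeR and 77 in DESeq2.

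With the replicate number as a block, 0 of the 7 tested genes passed and 24 of all genes did; Daglb was 2.64 (adjusted p 0.419). The numbers were not taken to pair the mice, since every library came from its own mouse. Deviations of same-numbered libraries from their group means correlated at 0.0764, 0.124, 0.0615 and 0.174, and not every library correlated best with its own number. Same-numbered libraries share an age class, so these values cannot tell pairing from age class. From group and age class means the same correlations were -0.00285, -0.00285, -0.00533 and -0.00533. The mean Mgll share of hydrolase TPM, PKCd minus SST, was -15.7 percentage points (-24.6 to -10.8 with 1 library left out, -17.5 from counts), and that of Dagla among lipases -11.1 (-14.9 to -1.93, -15.8 from counts). Cnr1, Napepld and Faah gave no value under the filter of 10 CPM in 4 libraries. Depth limits Cnr1, Cnr2, Dagla, Napepld and Faah in the older libraries, where 3 reads equal 1.19 to 3.11 CPM.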

Other observations

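Genes whose levels were most like those of the other tested genes over the 8 libraries were of mixed kinds. These are Pearson correlations of log2(TPM + 1), each among the highest over 7981 genes. They are given as a description over libraries that differ in population, depth and microglial content. Cnr1 was most like Chka, a choline kinase (r = 0.979), Fjx1 (0.973) and Mras, a GTPase of the Ras family (0.967). Chka was listed at 0 in the same 3 PKCd libraries as Cnr1, and had 16.9 TPM in PKCd replicate 1 and 1.85 to 54.5 TPM in SST libraries. Abhd6 was most like Cenpx, a centromere protein (0.954), and the lysosomal enzymes Ppt1 (0.942) and Asah1 (0.937), a thioesterase and a ceramidase. Mgll was most like Prkag1, a subunit of AMP-activated protein kinase (0.949), and Vopp1 was among its nearest 3 genes (0.939). Abhd12 was most like Rnf220, a ubiquitin ligase (0.960), Tmem65 (0.924) and Gtf3a, a transcription factor of RNA polymerase III genes (0.915). Napepld was most like Alg8, a glycosyltransferase (0.913), Ormdl2 (0.894) and Apeh, a peptide hydrolase (0.873). Faah was most like Galk2, a sugar kinase (0.942), Etnppl, a phospho-lyase of ethanolamine phosphate (0.917), and Birc3 (0.900).

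Inpp5d, Arrb2 and Plcg2, the other pathway genes that DESeq2 called higher in PKCd libraries, were chosen here after their values were seen. Inpp5d, a phosphatase of blood cell signalling, had 57.2 to 90.7 TPM in PKCd libraries and 1.16 to 8.30 TPM in SST libraries. Arrb2, a beta-arrestin that binds activated receptors, had 79.8 to 136.9 TPM in PKCd libraries and 11.007 to 21.7 TPM in SST libraries. Plcg2, a phospholipase C of immune cells, had 5.29 to 58.2 TPM in PKCd libraries and 0 to 6.27 TPM in SST libraries. Microglial markers moved the same way, and their part was not tested.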
